A study of Mus musculus with 8 samples.

Results

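Binding of myogenin and p300 was examined around 8 genes of myoblast fusion and cell adhesion: Tmem8c, Gm7325, Cdh15, Cdh2, Kirrel, Jam2, Jam3 and Itga7. All peak intervals within 50 kb of the annotated gene bodies were collected, and they came to 106 of the 43759 intervals in the 4 peak lists of the study. The cells were C2C12, a myoblast line from a C3H mouse that forms multinucleated myotubes in culture. They were differentiated for 24 h without bexarotene (Ctl) or with 50 nM bexarotene (Bex), and chromatin was immunoprecipitated with an antibody to myogenin or to p300. Each factor and condition was 1 library from this 1 cell line, so no difference between Ctl and Bex could be set against the spread between replicates and no test was made. The lists hold positions of called peaks with no read counts, and depth was not used here. A peak found in only 1 list may also carry signal below the threshold in the other condition.

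Myogenin is the basic helix-loop-helix factor of terminal muscle differentiation and binds E-boxes, short motifs of the form CANNTG. p300 is a histone acetyltransferase and coactivator that is found at active enhancers. Bexarotene is an agonist of the retinoid X receptor (RXR), a nuclear receptor. Myoblasts adhere to each other before their membranes merge. Myomaker (Tmem8c) and myomixer (Gm7325) are the muscle membrane proteins that drive the merging itself. M-cadherin (Cdh15) and N-cadherin (Cdh2) are calcium-dependent adhesion proteins, Kirrel, Jam2 and Jam3 are adhesion proteins of the immunoglobulin superfamily, and Itga7 is the integrin alpha subunit that links muscle cells to laminin.

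The 8 genes were held in windows of 1282 kb in all. They contained 22 of the 5912 myogenin intervals in Ctl and 33 of the 6642 in Bex, and 34 of the 22051 p300 intervals in Ctl and 17 of the 9154 in Bex. More myogenin intervals were therefore called in Bex and more p300 intervals in Ctl, as in the whole lists. Counting only intervals whose nearest protein-coding TSS was that of the gene left 14 and 16 for myogenin and 18 and 11 for p300. The density of myogenin intervals was 1.72 per 100 kb in Ctl and 2.57 in Bex, against 0.456 and 0.457 per 100 kb over the same windows of all protein-coding genes. For p300 the density was 2.65 per 100 kb in Ctl and 1.33 in Bex, against 1.09 and 0.449. At least 1 myogenin interval was found near 6 of the 8 genes in Ctl and near 7 in Bex, where 32.3% and 32.9% of 22367 protein-coding genes had one. At least 1 p300 interval was found near 7 genes in Ctl and near 5 in Bex, against 53.8% and 35.2% of all genes. The 8 genes differed widely among themselves. Itga7 and Gm7325 held 21 and 14 of the 55 myogenin intervals, while Kirrel, Jam2 and Jam3 held 1 each. The genes are described by their role, from the fusion proteins to the adhesion proteins.

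**Figure D1:**
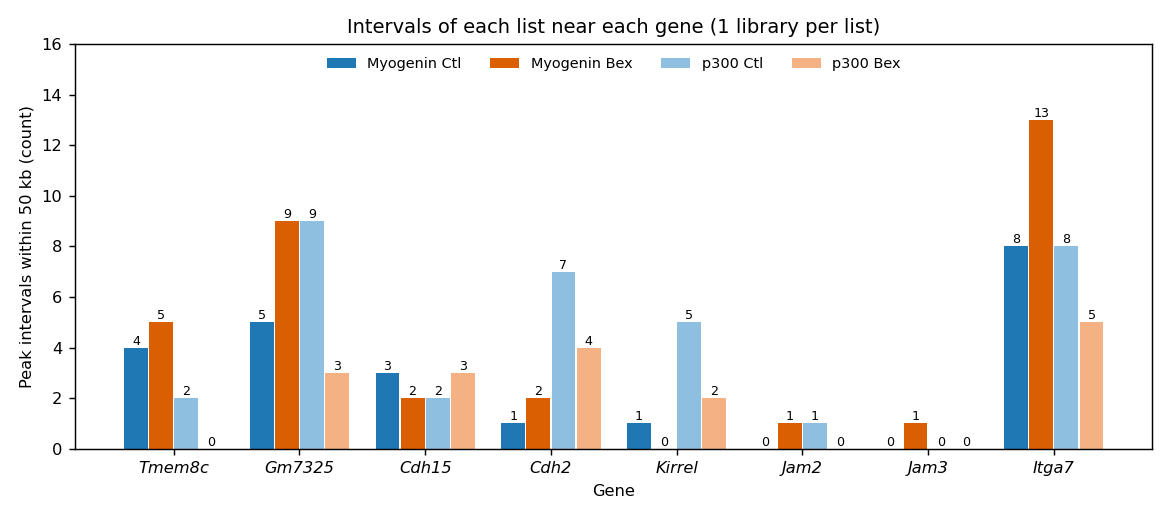
Number of peak intervals within 50 kb of each gene (vertical axis, count) in the 4 lists, with 1 library per list and no error bar. Itga7 and Gm7325 carried the most myogenin intervals, with 13 and 9 in Bex, and Jam3 carried 1 interval in all.

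Tmem8c encodes myomaker and lies on the minus strand at chr2:26917156-26927699 (mm9). It had 4 myogenin intervals in Ctl and 5 in Bex, and 2 p300 intervals in Ctl and 0 in Bex. All 4 Ctl myogenin peaks were shared with Bex. One of them covered the transcription start site (TSS), at 26927567-26927814 in Ctl and 26927574-26927865 in Bex, and held 2 E-boxes spelled CAGCTG. Another lay in intron 1, 2331 bp downstream of the TSS in Bex (26925187-26925549), which is also 1980 bp upstream of an annotated internal TSS at 26923388. The third was 3586 bp upstream of the TSS in Bex (26931158-26931412), and the fourth was intergenic, 36.0 kb downstream of the TSS and beyond the end of the gene. The only myogenin interval unique to Bex was 168 bp long and lay 36.2 kb upstream, in exon 19 of Adamtsl2. No p300 interval overlapped any of these 5 myogenin regions, and both p300 peaks were unique to Ctl, at 12.9 and 13.6 kb downstream of the TSS. The myogenin sequences around the start of myomaker are printed 5′ to 3′ on the coding strand, because the 3 shared regions nearest to the TSS all carry CAGCTG. Capitals mark E-boxes here and in the sequences that follow (CAGCTG, and CACCTG or CAGGTG, which are 1 motif on opposite strands).
Tmem8c upstream of the TSS, chr2:26931158-26931381: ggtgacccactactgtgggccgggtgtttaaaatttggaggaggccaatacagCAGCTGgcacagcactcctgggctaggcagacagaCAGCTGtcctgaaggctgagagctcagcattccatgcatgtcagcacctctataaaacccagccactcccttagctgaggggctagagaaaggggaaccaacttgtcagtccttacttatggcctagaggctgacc
Tmem8c start site, bases before the TSS, chr2:26927700-26927814: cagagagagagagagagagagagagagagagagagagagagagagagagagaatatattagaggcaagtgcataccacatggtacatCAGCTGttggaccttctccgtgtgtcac
Tmem8c intron 1, chr2:26925267-26925438: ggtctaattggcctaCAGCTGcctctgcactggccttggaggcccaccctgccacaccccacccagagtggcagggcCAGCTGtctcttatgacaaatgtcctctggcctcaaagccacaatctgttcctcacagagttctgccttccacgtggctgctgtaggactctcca
In the upstream sequence the CAGCTG sites were 29 bp apart, and in intron 1 they were 56 bp apart. The stretch at the start site shows 1 of the 2 CAGCTG sites of that region, since bases downstream of the TSS are not shown.

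Gm7325 encodes myomixer, a small membrane protein, and lies on the minus strand at chr17:45737916-45739051, with Slc29a1, Hsp90ab1, Slc35b2, Capn11 and Nfkbie in the same window. It had 5 myogenin intervals in Ctl and 9 in Bex, and 9 p300 intervals in Ctl and 3 in Bex. Its TSS was the nearest one for 4 of the 9 Bex myogenin intervals, and the others stand near Slc29a1, Hsp90ab1 and Tmem151b. These made 10 myogenin regions, of which 4 were shared, 1 was unique to Ctl and 5 were unique to Bex. A shared myogenin region covered the TSS in both conditions, 310 bp long in Ctl and 321 bp in Bex. No p300 interval was called there. The study itself describes p300 signal at the myomixer promoter in its read tracks and by ChIP-qPCR, and lower myomixer expression after p300 knockdown. The missing call is therefore not evidence that p300 was absent. A further shared myogenin region lay 14.1 kb upstream of the TSS in Bex (45752964-45753417), with Gm7325 as the nearest protein-coding gene. The Ctl interval was 45752992-45753457. Both were overlapped by p300, 857 bp long in Ctl (45753025-45753881) and 719 bp in Bex (45753044-45753762). An interval at least as long was found for 0.884% of the Ctl and 0.404% of the Bex p300 list. Myogenin was also shared at 9.31 kb upstream, without p300, and at 4121 bp downstream of the TSS in Bex (45734801-45735060, and 45734815-45734986 in Ctl), in intron 1 of Slc29a1. There p300 was called at 45734867-45735105 in Ctl and 45734834-45735082 in Bex. The upstream region with p300 carries the most E-boxes of this gene and is printed on the coding strand.
Gm7325 upstream region with p300, chr17:45753055-45753354: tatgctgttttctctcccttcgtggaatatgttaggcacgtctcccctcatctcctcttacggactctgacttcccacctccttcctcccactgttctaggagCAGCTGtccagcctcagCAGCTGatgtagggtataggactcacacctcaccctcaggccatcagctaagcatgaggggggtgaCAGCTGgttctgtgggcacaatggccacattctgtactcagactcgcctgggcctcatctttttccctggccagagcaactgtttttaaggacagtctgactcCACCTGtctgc
In this region 4 E-boxes were separated by 11, 60 and 97 bp.

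The 5 myogenin regions unique to Bex near Gm7325 lay 14.8 kb upstream and 2340, 5215, 21050 and 49743 bp downstream of its TSS. Overlap with p300 was found for 2 of them. The interval 14.8 kb upstream (45753802-45753969, 168 bp) overlapped the long Ctl p300 interval and had no E-box. The interval at 45717836-45718167 overlapped a p300 interval unique to Ctl (45717834-45717992) and held 1 CAGCTG. The 1 region unique to Ctl was 172 bp long and lay 444 bp from the nearest Bex interval. Of the 9 p300 regions, 3 were shared, 6 were unique to Ctl and none was unique to Bex. The myogenin count in Bex was among the highest of all genes: 46 of 22367 protein-coding genes (0.206%) had at least 9 such intervals, and 4 of those 46, with Gm7325 counted, lie within 100 kb of Gm7325.

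**Figure D2:**
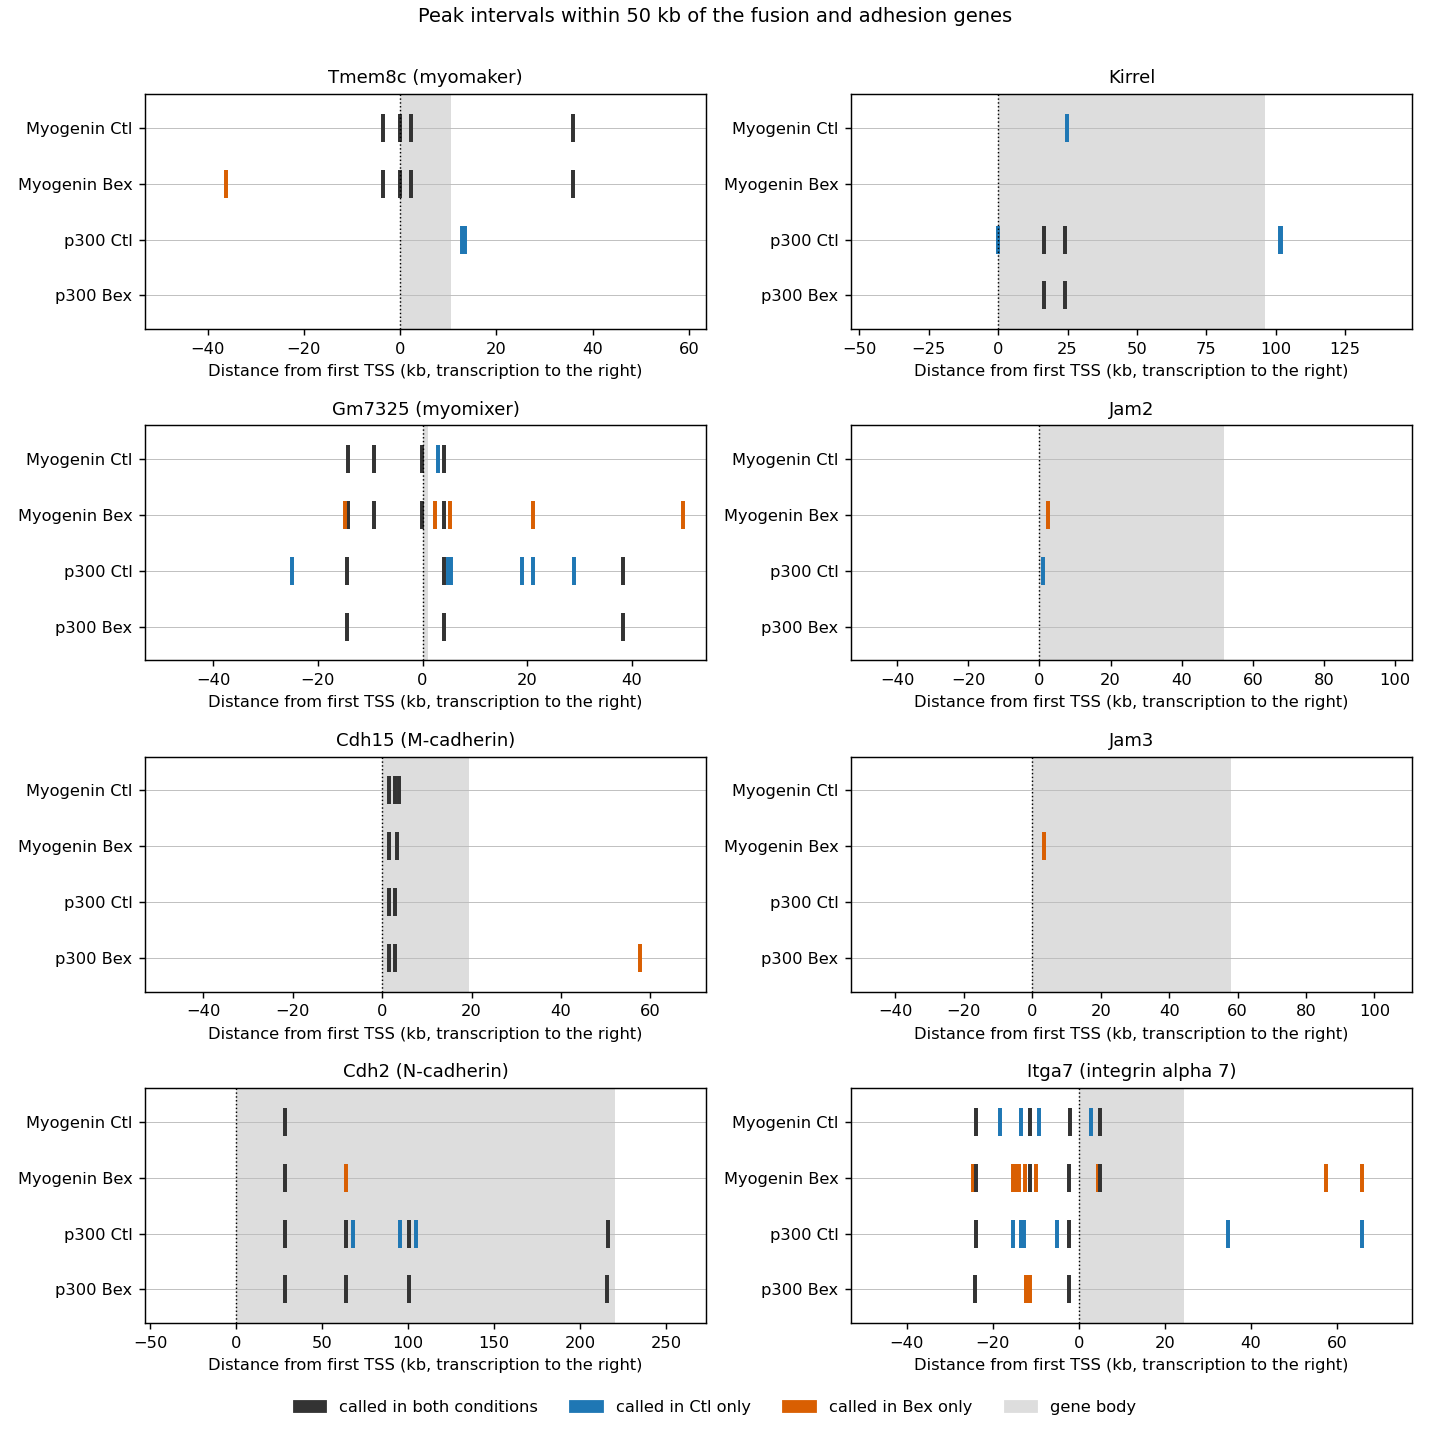
Position of every interval of the 4 lists (rows) relative to the first TSS of each gene (horizontal axis, kb, transcription to the right). Shading is the gene body and colours give the overlap class. Shared myogenin peaks stand at the start of Tmem8c and Gm7325 and within the first 5 kb of Cdh15 and Itga7. The only Kirrel, Jam2 and Jam3 myogenin peaks were each called in 1 condition.

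Kirrel, a nephrin-like adhesion protein, lies on the minus strand at chr3:86882515-86978669 with no other protein-coding gene in its window. It had 1 myogenin interval in Ctl and 0 in Bex, and 5 p300 intervals in Ctl and 2 in Bex. The myogenin peak, at 86953796-86953967 in intron 1, was unique to Ctl and 172 bp long, the shortest length in that list. It lay close to a shared p300 peak in intron 1 (86954610-86954808 in Ctl and 86954497-86954819 in Bex), without overlapping it. A second shared p300 peak was in the same intron, 16584 bp downstream of the first TSS in Ctl (86961916-86962255, and 86962000-86962157 in Bex). p300 was also called at the start of the gene in Ctl only (86978389-86978742, 354 bp), over exon 1. Neither the shared p300 peaks nor the p300 peak at the start held an E-box. The lone myogenin interval is printed because it holds the CAGCTG of this gene.
Kirrel intron 1, Ctl only, chr3:86953796-86953967: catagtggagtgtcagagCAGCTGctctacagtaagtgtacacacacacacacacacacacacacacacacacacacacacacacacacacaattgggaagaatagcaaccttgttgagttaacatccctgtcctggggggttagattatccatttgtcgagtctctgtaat

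Jam2 and Jam3 encode junctional adhesion molecules. Jam2 lies on the plus strand at chr16:84774368-84826173 and had 0 myogenin intervals in Ctl and 1 in Bex, and 1 p300 interval in Ctl and 0 in Bex. Both lay in intron 1 and did not overlap. The p300 peak was centred 961 bp and the myogenin peak 2300 bp downstream of the first TSS. The p300 peak (84775146-84775512, 367 bp) held 3 CAGCTG sites, and the myogenin peak (84776539-84776798, 260 bp) held 1 E-box spelled CAGGTG. Jam3 lies on the minus strand at chr9:26904969-26963003 and had 0 myogenin intervals in Ctl and 1 in Bex, with no p300 interval in either condition. The Jam3 peak lay 3539 bp downstream of the first TSS in intron 1 and was 168 bp long, the shortest length in the Bex list. The 3 intervals are printed because they are all that was called near these genes.
Jam2 intron 1, p300, Ctl only, chr16:84775179-84775478: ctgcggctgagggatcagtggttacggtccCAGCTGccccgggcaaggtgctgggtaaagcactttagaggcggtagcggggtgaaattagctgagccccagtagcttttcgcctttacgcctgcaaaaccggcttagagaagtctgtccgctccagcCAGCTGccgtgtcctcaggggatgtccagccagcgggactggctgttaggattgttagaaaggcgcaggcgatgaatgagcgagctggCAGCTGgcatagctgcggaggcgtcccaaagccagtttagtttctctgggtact
Jam2 intron 1, myogenin, Bex only, chr16:84776539-84776798: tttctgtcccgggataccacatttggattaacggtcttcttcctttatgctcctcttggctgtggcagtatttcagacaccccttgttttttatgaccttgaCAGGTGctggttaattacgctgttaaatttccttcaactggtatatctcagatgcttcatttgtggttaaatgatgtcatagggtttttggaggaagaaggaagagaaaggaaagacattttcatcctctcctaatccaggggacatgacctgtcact
Jam3 intron 1, myogenin, Bex only, chr9:26959381-26959548: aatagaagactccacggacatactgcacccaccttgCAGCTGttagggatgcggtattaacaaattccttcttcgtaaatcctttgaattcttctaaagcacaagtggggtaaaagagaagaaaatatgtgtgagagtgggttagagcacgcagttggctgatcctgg

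Itga7 lies on the plus strand at chr10:128370869-128395333. It had 8 myogenin intervals in Ctl and 13 in Bex, and 8 p300 intervals in Ctl and 5 in Bex. Only 16 of 22367 protein-coding genes (0.0715%) had at least 13 myogenin intervals in Bex, and Itga7 and its neighbour Mettl7b were among them. Most of these intervals stand near other genes. The TSS of Itga7 was the nearest one for 3 of the 8 Ctl and 3 of the 13 Bex myogenin intervals, while Cd63, Rdh5 and Bloc1s1 lie upstream. Myogenin and p300 were both called in both conditions 2.32 kb upstream of Itga7 (myogenin 128368286-128368816 in Bex and 128368570-128368876 in Ctl), where 2 E-boxes were 12 bp apart. The p300 interval there was 472 bp long in Ctl (128368329-128368800) and 158 bp in Bex (128368585-128368742). In intron 1, myogenin was shared 4878 bp downstream of the TSS in Bex (128375632-128375862, and 128375596-128375875 in Ctl), without p300. Intron 1 also held a Ctl-only interval at 128373621-128373792 and a Bex-only interval at 128375239-128375406, both at the shortest length of their lists and without an E-box.
Itga7 upstream, myogenin and p300, chr10:128368570-128368816: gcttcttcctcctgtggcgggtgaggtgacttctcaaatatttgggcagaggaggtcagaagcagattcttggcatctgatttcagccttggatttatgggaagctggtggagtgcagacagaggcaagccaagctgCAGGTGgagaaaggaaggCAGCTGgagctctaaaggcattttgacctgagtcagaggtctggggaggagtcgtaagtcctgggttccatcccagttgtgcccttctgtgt

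The longest myogenin interval in Ctl near any of the 8 genes covered 1292 bp and was centred in intron 2 of Bloc1s1, 11.5 kb upstream of Itga7 (128358770-128360061). It was shared with a Bex interval of 951 bp (128359029-128359979) and held 3 CAGCTG sites. An interval at least as long was found 3 times in the Ctl myogenin list (0.0507% of it), this one included. Inside it, p300 was called in Bex only, in intervals of 158 bp (128359091-128359248) and 250 bp. The longer one is printed because it was the only p300 interval unique to Bex near the 8 genes that held an E-box, and it held 2.
Itga7 locus, p300 in Bex only, chr10:128359418-128359667: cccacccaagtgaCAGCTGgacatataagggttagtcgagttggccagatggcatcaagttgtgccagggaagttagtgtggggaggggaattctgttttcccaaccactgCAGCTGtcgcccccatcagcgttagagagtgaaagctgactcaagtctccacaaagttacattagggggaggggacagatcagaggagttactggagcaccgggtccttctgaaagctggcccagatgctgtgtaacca
The 17 myogenin regions of the Itga7 window fell into 4 shared, 4 unique to Ctl and 9 unique to Bex. p300 overlapped 7 of them. The third shared region with p300 lay in intron 1 of Cd63, 24.0 kb upstream of Itga7, with myogenin at 128346720-128346980 in Ctl and 128346720-128346939 in Bex. It held 1 CAGCTG, and p300 was called there at 128346652-128347005 in Ctl and 128346685-128346935 in Bex. The other 4 overlaps were each with a p300 interval called in Ctl only. In exon 2 of Rdh5 a Bex-only myogenin interval (128355517-128355684) overlapped p300 at 128355455-128355613. In intron 3 of Bloc1s1 p300 at 128357059-128357491 overlapped both a Bex-only (128356849-128357080) and a Ctl-only myogenin interval (128357394-128357565). Downstream of Itga7, a Bex-only myogenin interval (128436401-128436779) overlapped p300 at 128436502-128436742. The 4 regions unique to Ctl were all 172 bp long.

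Cdh15 encodes M-cadherin and lies on the plus strand at chr8:125371866-125391297. It had 3 myogenin intervals in Ctl and 2 in Bex, and 2 p300 intervals in Ctl and 3 in Bex. Every myogenin interval lay in intron 1, in 2 shared regions, and both regions overlapped p300 in both conditions. The nearer region was centred 1559 bp downstream of the TSS in Ctl (125373171-125373680) and 1482 bp in Bex (125373091-125373606). The farther one was a single Bex interval of 1366 bp (125374608-125375973). In Ctl the same stretch was called as 2 intervals, of 352 bp (125374677-125375028) and 564 bp (125375448-125376011). Only 2 of the 6642 Bex myogenin intervals (0.0301%) were at least as long as this one. The farther region held 6 E-boxes, the most of the 39 myogenin regions near the 8 genes. p300 was called over its first Ctl interval and not over its second, at 125374618-125374936 in Ctl and 125374681-125374970 in Bex. In the nearer region p300 was called at 125373271-125373429 in Ctl and 125373244-125373442 in Bex. The remaining p300 interval was unique to Bex and 158 bp long, and lay 57.6 kb downstream of the TSS in an intron of Gm20388. One stretch of each region is printed because myogenin and p300 were called over both in both conditions.
Cdh15 intron 1, nearer region, chr8:125373239-125373538: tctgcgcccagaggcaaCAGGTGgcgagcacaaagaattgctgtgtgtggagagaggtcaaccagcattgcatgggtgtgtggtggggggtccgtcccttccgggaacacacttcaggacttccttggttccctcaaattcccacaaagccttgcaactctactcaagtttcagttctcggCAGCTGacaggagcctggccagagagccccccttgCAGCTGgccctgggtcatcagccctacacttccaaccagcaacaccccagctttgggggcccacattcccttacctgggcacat
Cdh15 intron 1, farther region, chr8:125374703-125375002: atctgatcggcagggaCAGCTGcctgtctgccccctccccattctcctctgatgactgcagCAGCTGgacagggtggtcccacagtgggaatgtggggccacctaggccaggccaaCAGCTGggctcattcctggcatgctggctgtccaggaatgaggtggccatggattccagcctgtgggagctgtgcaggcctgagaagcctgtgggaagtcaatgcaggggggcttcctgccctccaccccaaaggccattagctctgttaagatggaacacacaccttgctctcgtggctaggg

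Cdh2 encodes N-cadherin, lies on the minus strand at chr18:16747386-16967755 and had the longest window of the 8 genes, 320 kb, with no other protein-coding gene in it. It had 1 myogenin interval in Ctl and 2 in Bex, and 7 p300 intervals in Ctl and 4 in Bex, all of them in its introns. The shared myogenin region in intron 1, 28434 bp downstream of the first TSS in Ctl (16939108-16939535), was called at 16939142-16939492 in Bex and held 2 E-boxes 200 bp apart. It coincided with shared p300, at 16939162-16939512 in Ctl and 16939194-16939427 in Bex. The myogenin interval unique to Bex (16903662-16903881) was 220 bp long, in intron 2, 63984 bp downstream of the first TSS. It lay inside p300 intervals that were called in both conditions, 714 bp long in Ctl (16903284-16903997) and 499 bp in Bex (16903460-16903958). Of the 7 p300 regions 4 were shared and 3 were unique to Ctl, and p300 was shorter in Bex in each of the 4 shared ones. The remaining shared ones were at 16751337-16752019 and 16866884-16867120 in Ctl and at 16751494-16751997 and 16866972-16867129 in Bex. The p300 intervals unique to Ctl, at 16863092-16863510, 16872154-16872438 and 16899259-16899800, were 285 to 542 bp long, and none held an E-box.

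The positions of the 8 genes were next counted by overlap class, to ask which peaks were called with and without bexarotene. Intervals that overlapped by at least 1 bp formed a region, and a region with intervals of both conditions was shared. Of the 39 myogenin regions, 15 were shared (38.5%, 95% Wilson interval 24.9 to 54.1), 6 were unique to Ctl (15.4%, 7.25 to 29.7) and 18 were unique to Bex (46.2%, 31.6 to 61.4). Over all 9553 myogenin regions the shares were 31.3%, 30.6% and 38.2%. These intervals cover counting error only, and regions of 1 window are not independent. Of the 38 p300 regions, 13 were shared (34.2%), 21 were unique to Ctl (55.3%) and 4 were unique to Bex (10.5%), against 30.1%, 62.1% and 7.76% of all 23903 p300 regions. The Wilson intervals of the p300 shares held the values over all regions (shared 21.2 to 50.1, Ctl 39.7 to 69.9, Bex 4.17 to 24.1). Only the Ctl-unique myogenin share lay with its interval below the share over all regions, and it rests on 6 regions, 4 of them near Itga7. It depended on the overlap rule: with a reciprocal overlap of 50%, 10 of 43 regions were unique to Ctl (23.3%, 13.2 to 37.7), against 32.9% of all regions. Without intervals of the shortest length no region was unique to Ctl, and no share over all regions is given for that setting. Without Itga7 and Gm7325, the 6 other genes held 7 shared, 1 Ctl-unique and 4 Bex-unique myogenin regions.

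**Figure D3:**
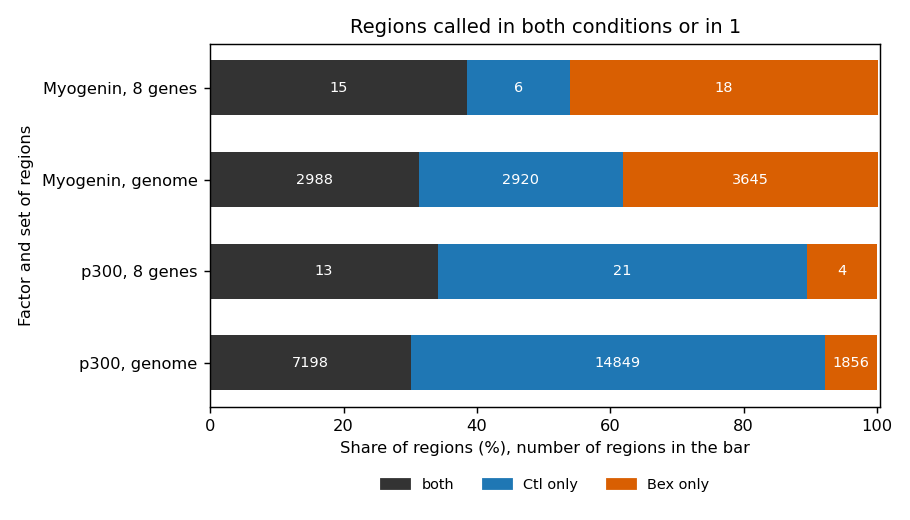
Share of myogenin and p300 regions (horizontal axis, %) called in both conditions, in Ctl only or in Bex only, near the 8 genes and over the whole genome, with the number of regions in each bar. Near the 8 genes 6 of 39 myogenin regions were unique to Ctl and 18 to Bex, and for p300 21 of 38 were unique to Ctl and 4 to Bex.

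By gene, a shared myogenin region was found near 5 of the 8 genes (all but Kirrel, Jam2 and Jam3), against 17.5% of all protein-coding genes. A myogenin region unique to Bex was found near 6 (all but Cdh15 and Kirrel), against 25.1%, and one unique to Ctl near 3 (Gm7325, Kirrel and Itga7), against 23.0%. For p300, shared regions were found near 5 genes (Gm7325, Cdh15, Cdh2, Kirrel and Itga7), against 27.7%. Regions unique to Ctl were found near 6, against 47.5%, and regions unique to Bex near Cdh15 and Itga7, against 14.4%. A myogenin interval within 1 kb of the gene's own TSS was found for the fusion proteins Tmem8c and Gm7325, against 8.09% of all genes. p300 was called within 1 kb of the TSS of Kirrel and Jam2, in Ctl, against 12.9%. This split by role depended on the distance. Within 2.5 kb, Cdh15, Jam2 and Itga7 also had a myogenin interval (5 of the 8 genes, against 10.4%), and p300 was found for Cdh15, Kirrel, Jam2 and Itga7 (4 genes, against 15.5%). No gene of the 8 had intervals of both factors called within 1 kb, and Cdh15, Jam2 and Itga7 had both within 2.5 kb. These are called peaks only, and the study describes p300 at the myomixer (Gm7325) promoter by other measures. The share of all protein-coding genes with both factors was not counted, so these numbers have no comparison.

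Myogenin and p300 were called together near 4 of the 8 genes, Gm7325, Cdh15, Cdh2 and Itga7, against 18.3% of all genes. Of the 39 myogenin regions 15 overlapped a p300 interval of either condition (38.5%, 24.9 to 54.1), against 34.7% over all myogenin regions. Overlap was found for 8 of the 15 shared regions, 1 of the 6 unique to Ctl and 6 of the 18 unique to Bex. The shares over all regions of these classes were 51.0%, 22.8% and 30.9%. Of the 6 unique to Bex, 5 overlapped p300 intervals of Ctl only, and the 1 near Cdh2 overlapped p300 of Bex as well. Over all 1128 such regions, 44.1% overlapped p300 of Ctl only. With the p300 list of the same condition alone, 10 of the 39 myogenin regions overlapped p300 (25.6%, 14.6 to 41.1), against 28.8% over all. These were 8 of the shared regions, 1 unique to Ctl and 1 unique to Bex (5.56%, 0.988 to 25.8), against 50.7%, 20.6% and 17.3%. Counted from p300, 14 of the 38 p300 regions overlapped a myogenin interval (36.8%, 23.4 to 52.7), against 13.8% over all p300 regions. Overlap was found for 8 of the 13 shared p300 regions (61.5%, 35.5 to 82.3), against 24.8%, and for 4 of the 21 unique to Ctl (19.0%), against 8.01%. The Itga7 window held 7 of the 14. Without it the share was 7 of 27 p300 regions (25.9%, 13.2 to 44.7), an interval that holds the share over all regions, with 6 of 11 shared p300 regions (54.5%, 28.0 to 78.7) and 1 of 15 unique to Ctl (6.67%). Without Itga7 and Gm7325 it was 4 of 8 shared regions (50.0%, 21.5 to 78.5), an interval that holds 24.8%, and 0 of 9 unique to Ctl.

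The length of an interval was the only measure of a peak that the lists gave. Myogenin peaks called in both conditions were long, and myogenin peaks called in 1 condition were mostly at the shortest length of their list. All 6 myogenin intervals unique to Ctl were 172 bp long, the shortest length, as were 75.6% of this class over the whole list. Of the 18 unique to Bex, 12 were at the shortest length of 168 bp (66.7%), as were 69.7% over the whole list. The remaining 6 of them were 220 to 379 bp long. Among the 15 shared regions no Bex interval and 2 of 16 Ctl intervals were at the shortest length, against 26.1% and 34.4% over the whole lists. The median length of the shared intervals was 351 bp in Bex near the 8 genes and 254 bp over all. Of the 15 shared myogenin regions, 9 covered more bases in Bex than in Ctl (60.0%) and 6 fewer, against 45.4% with more over all 2988 shared regions. The intron 1 peak of Tmem8c went from 172 bp in Ctl to 363 bp in Bex, and the peak 2.23 kb upstream of Itga7 from 307 to 531 bp. Among the 6 that covered fewer bases, the peak 11.4 kb upstream of Itga7 went from 1292 to 951 bp. The intron 1 peak of Cdh2 went from 428 to 351 bp. Of the 13 shared p300 regions, 3 covered more bases in Bex and 10 fewer, against 9.81% with more over all 7198. Among the p300 intervals, 6 of the 21 unique to Ctl (28.6%) and 3 of the 4 unique to Bex (75.0%) were at the shortest length, against 46.2% and 80.5% over the whole lists. The number of called peaks differs between the lists, and its part in these lengths was not tested.

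**Figure D4:**
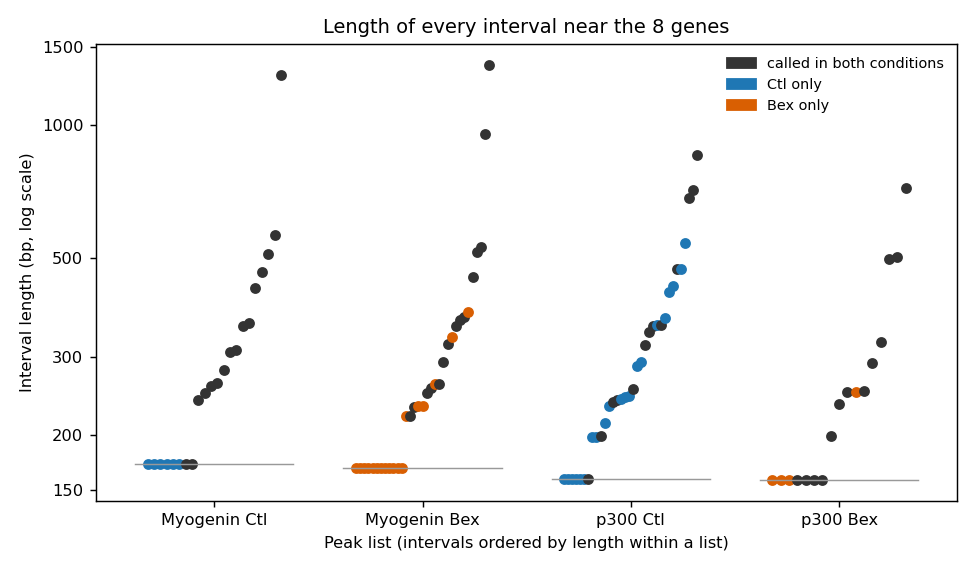
Length of each of the 106 intervals near the 8 genes (vertical axis, bp, log scale) in the 4 lists, ordered by length, coloured by overlap class. Grey lines mark the shortest length of a list. All 6 myogenin intervals unique to Ctl and 12 of the 18 unique to Bex lie on that line.

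Some myogenin peaks unique to 1 condition lay beside a peak of the other. A Bex interval stood within 1 kb of 3 of the 6 myogenin regions unique to Ctl (50.0%, 18.8 to 81.2), against 13.8% over all such regions. A Ctl interval stood within 1 kb of 8 of the 18 unique to Bex (44.4%, 24.6 to 66.3), against 10.6%. These 11 regions were all near Gm7325 and Itga7. For p300 it was 2 of the 21 regions unique to Ctl (9.52%, 2.65 to 28.9), against 7.14%, and 2 of the 4 unique to Bex (50.0%), against 20.6%. In the Itga7 window, for example, the Bex-only interval in intron 1 was separated from the shared Ctl interval by 189 bp. For the myogenin regions unique to 1 condition near Tmem8c, Cdh2, Kirrel, Jam2 and Jam3, the nearest interval of the other condition was 32439 bp or farther away.

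E-boxes were counted on both strands as CAGCTG or as the motif CACCTG, whose reverse complement CAGGTG counts with it. Near the 8 genes 18 of the 39 myogenin regions had an E-box within 50 bp of an interval centre (46.2%, 31.6 to 61.4), against 53.2% of all myogenin regions. The share was 12 of 15 for shared regions (80.0%, 54.8 to 93.0), 1 of 6 for those unique to Ctl (16.7%, 3.01 to 56.4) and 5 of 18 for those unique to Bex (27.8%, 12.5 to 50.9). Over all regions it was 79.6%, 27.9% and 52.0%. A shared region was searched around the centre of each of its intervals, and a region unique to 1 condition around 1 centre. Shared regions thus had more sequence in which a match could fall, and the classes were not set against each other. The wide interval of the shared regions held the share over all shared regions, and no difference was tested. The low share of the Bex-unique regions came from the Itga7 window, where 0 of 9 had one. At the other genes 5 of 9 Bex-unique regions had an E-box there (55.6%, 26.7 to 81.1). Over the whole interval, an E-box was present in 15 of 15 shared regions, 2 of 6 unique to Ctl and 10 of 18 unique to Bex (55.6%, 33.7 to 75.4), against 91.0%, 42.2% and 67.3% over all regions, so that the Bex-unique share did not stand apart in this window. The regions held 50 E-boxes in all, 34 of them CAGCTG. At least 2 stood in 11 of the 15 shared regions, in 2 of the 18 unique to Bex and in none of the 6 unique to Ctl. Shared regions were also longer, and their E-box counts were not set against length. The sites, and the regions with at least 2, were not counted over all myogenin regions. Whether these counts are particular to the 8 genes was therefore not tested.

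**Figure D5:**
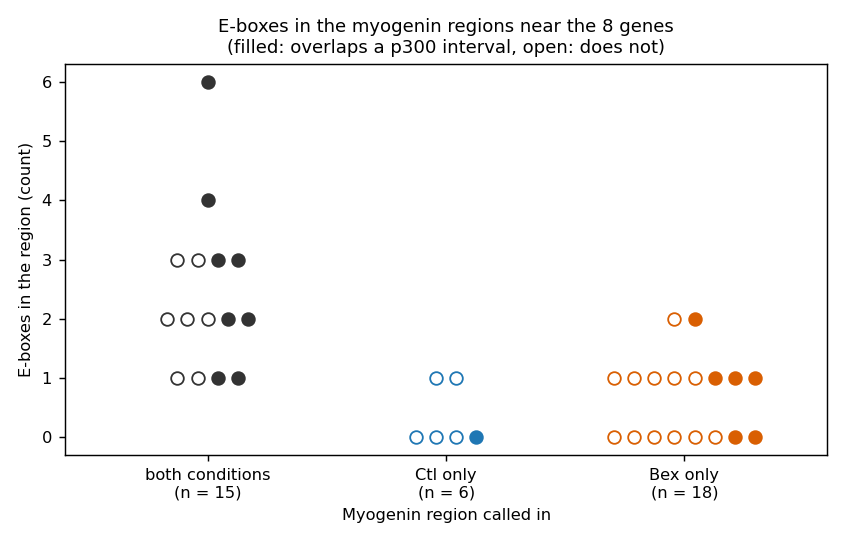
Number of E-boxes (vertical axis, count) in each of the 39 myogenin regions near the 8 genes, by overlap class, with filled points for regions that overlap a p300 interval. All 15 shared regions held at least 1 E-box, up to the 6 of the Cdh15 region, and 4 of the 6 Ctl-unique and 8 of the 18 Bex-unique regions held none.

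The nuclear receptor motif AGGTCA was searched on both strands within 100 bp of the interval centre. It was present in 7 of the 33 Bex myogenin intervals (21.2%, 10.7 to 37.8) and 2 of the 22 Ctl intervals (9.09%, 2.53 to 27.8), against 13.6% and 12.6% of the whole lists. The 7 were near Tmem8c (intron 1), Gm7325, Cdh15, Jam2 and Itga7. For p300 it was present in 4 of 17 Bex and 4 of 34 Ctl intervals (23.5% and 11.8%), against 11.2% and 10.8%. The Wilson intervals of the p300 shares were 9.56 to 47.3 in Bex and 4.67 to 26.6 in Ctl, and all 4 Wilson intervals for AGGTCA held the share over their list. The AP-1 motif TGACTCA or TGAGTCA was present in 5 of 34 Ctl p300 intervals (14.7%, 6.45 to 30.1) and 6 of 17 Bex p300 intervals (35.3%, 17.3 to 58.7), against 27.8% and 27.1%. The Runx motif TGTGGT and the Tead motif GGAATG were present in 15.2% to 30.3% of the intervals of each list, against 16.6% to 32.7% over the lists. A match is a description of the letters in the window and not of a bound factor.

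A wider list of 47 genes with a described role in myoblast fusion or adhesion was counted in the same way, and 46 were matched by symbol. Myogenin intervals were found near 19 of them in Ctl (41.3%) and 22 in Bex (47.8%), and p300 intervals near 37 in Ctl (80.4%) and 28 in Bex (60.9%). Each share was above that over all protein-coding genes given above, and windows grow with gene length, which was not adjusted for. A shared myogenin region was found near 11 of the 46, where 17.5% of all protein-coding genes had one, and a myogenin region with p300 near 15, where 18.3% had one. Ncam1, a neural cell adhesion molecule of 297 kb, had 3 myogenin intervals in Ctl and 4 in Bex, and 19 p300 intervals in Ctl and 8 in Bex. Myof, which encodes the membrane repair and fusion protein myoferlin, had 2 and 4 myogenin and 10 and 5 p300 intervals. Kirrel3, a relative of Kirrel, had 1 and 4 myogenin and 15 and 6 p300 intervals. Other genes had fewer myogenin intervals in Bex, among them Trio, a guanine nucleotide exchange factor, with 5 in Ctl and 3 in Bex, and Wipf1, an actin regulator, with 3 and 1. Of the 46 genes, 13 had more myogenin intervals in Bex, 9 had more in Ctl and 24 had equal numbers, while for p300 2 had more in Bex and 30 more in Ctl. The myogenin shares were 28.3% with more in Bex and 19.6% with more in Ctl, against 16.2% with more in Bex over all 22367 protein-coding genes and 3357 genes with more in Ctl. For p300 they were 4.35% and 65.2%, against 4.59% and 43.8%. The genes named here were chosen after their counts were seen. The integrin genes Itga4 and Itga9, the cadherin Cdh11, the caveolin Cav3, and Kirrel2, Nphs1, Neo1, Bai3 and Crkl had no interval of any list. As a check of the cell type, 8 genes of differentiating muscle were examined. Myogenin intervals were found near 7 of them in Ctl (87.5%) and 6 in Bex (75.0%), against 32.3% and 32.9% of all protein-coding genes, with none near Ckm in either list and none near Des in Bex.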

How the data were processed

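The 4 deposited lists used here hold the positions of called peaks (chromosome, start and end) that the authors made for each library separately, with no score or read count. Per the labels and the methods of the study, reads were aligned to mm9 with BWA (myogenin) or Bowtie (p300), duplicates were removed with Picard, and peaks were called with HOMER in its factor style. The threshold is thus part of the lists. Input and H3K27me3 libraries were not analysed here. Starts, counted from 0 in the files, were converted to count from 1.

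Gene bodies and TSS came from the GENCODE annotation of the same build (22367 protein-coding genes, 51723 TSS records), and sequences from that genome. An interval belonged to a gene when it lay within 50 kb of its body. Distances run from the interval centre to the first TSS of the gene. Ctl and Bex intervals of the same factor sharing 1 bp or more were joined as regions. Shares carry 95% Wilson intervals. All 8 genes are named, and positions are given for most intervals in the gene, at its TSS or held by both factors, and the rest are given by distance, length or count. The sequence shown is the stretch called in both lists (or in 1 list where only that one had a peak), without UTR bases, and at most 300 bp, chosen to hold the most E-boxes. The myogenin region nearest to the TSS was shown for 6 genes, the sequences of the others being not reported here, and further sequences were chosen after positions were seen. Genes and lists were chosen with earlier results of these data known. Overlap, motif and interval functions were tested on simulated data. Python 3.11.15, numpy 2.4.6, pysam 0.24.0 and matplotlib 3.10.9 were used. Alternatives were other windows, gene assignments, overlap rules, interval lengths, motif windows, TSS distances and the removal of single genes.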

Additional observations from a re-analysis of the deposited data

How the results depend on the processing

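Of 114 alternative values, 65 stayed within 1.5 times of the main count or within its interval and 49 did not. None of these values had a test. With gene bodies only, intervals numbered 10 (myogenin Ctl), 11 (myogenin Bex), 13 (p300 Ctl) and 8 (p300 Bex), p300 was found at 4 genes in Ctl and 3 in Bex, myogenin regions were 7 shared, 2 Ctl-unique and 4 Bex-unique, and p300 regions were 8, 5 and 0. Within 10 kb there were 18 myogenin intervals in Bex, 22 p300 in Ctl and 10 in Bex, with 7 Bex-unique myogenin, 12 Ctl-unique p300 and 0 Bex-unique p300 regions. Counting only intervals whose nearest TSS was that of the gene gave 14, 16, 18 and 11, so that the excess of myogenin intervals in Bex fell from 33 against 22 to 16 against 14. Without intervals of the shortest length there were 14, 21 and 10 intervals of myogenin Ctl, myogenin Bex and p300 Bex, 0 Ctl-unique and 8 Bex-unique myogenin regions, and 8 shared and 2 Bex-unique p300 regions. Without Itga7 there were 14 and 20 myogenin intervals, 2 Ctl-unique and 9 Bex-unique myogenin regions and 1 Bex-unique p300 region. Without Itga7 and Gm7325, an alternative chosen after seeing the data, myogenin regions were 7, 1 and 4 and p300 regions 8, 9 and 1. In alternatives also chosen after seeing the data, an E-box was found within 50 bp in 55.6% of Bex-unique myogenin regions without Itga7 (27.8% with it), and myogenin overlapped 22.2% of p300 regions without Itga7 and Gm7325 (36.8% with them). A reciprocal overlap of 50% gave 10 Ctl-unique myogenin regions. Over the whole interval, an E-box was found in 69.2% of myogenin regions. Within 50 bp of a centre, any CANNTG was found in 66.7% and an E-box in 46.2%. A TSS distance of 2.5 kb gave 11 myogenin Ctl and 8 p300 Bex intervals near a TSS, against 7 and 5. With the same distance, chosen after seeing the data for the gene's own TSS, 5 genes had myogenin and 4 had p300 there, against 2 and 2. The cause was not tested.

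No paired analysis was possible because each condition has 1 library. With no read counts used, the depth of the libraries and the signal below the threshold limit every count of peaks found in 1 condition.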
